A study of Homo sapiens with 12 samples.

Results

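The transcriptional response of VCaP cells to testosterone was measured in cells that carried a control siRNA pool. VCaP is a human prostate cancer line derived from a vertebral bone metastasis. The comparison uses 6 of the 12 arrays of the study, chosen by their labels as the siSCR arrays, and all 10710 genes measured. The treated cells received 100 nM testosterone for 16 h, and the untreated cells received none, with 3 arrays in each group. Both groups had been transfected for 96 h with siSCR, the control pool, and kept for 100 h in medium with 2.5% charcoal-stripped serum, which is depleted of steroid hormones. The other 6 arrays carried siRNA against PIAS1, a SUMO E3 ligase. They entered the common error estimate and are otherwise used only where stated. The replicates are numbered, and nothing says that they were separate cultures, so p-values measure the spread between these samples. All arrays come from a single cell line, so they give no spread between tumours.

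Testosterone, and the more potent dihydrotestosterone made from it, act through a steroid receptor that enters the nucleus and binds DNA at androgen response elements. In the luminal epithelium of the prostate androgens drive secretory proteins such as the kallikreins, and the lipid, glycan and protein export machinery that secretion needs. VCaP cells carry the TMPRSS2-ERG fusion, which puts the ETS factor ERG under the androgen-driven TMPRSS2 promoter.

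Of the 47323 probes, between 33.2% and 34.5% were detected on the treated arrays and between 34.9% and 36.0% on the untreated arrays, and the median scanner signals were 95 to 99.8 on treated and 103 to 110 on untreated arrays. Correlations of normalized signal lay between 0.992 and 0.996 within the groups and between 0.938 and 0.941 across them. Of the identity genes listed for this line, 10 were measured, and all 10 were detected on every treated array. On the untreated arrays 9 were, the exception being KLK3. None of the 3 basal cell markers on the array was detected, and of 9 blood and endothelial markers only CD14 was. Of 9 fibroblast and smooth muscle markers, ACTA2 was detected on all 6 arrays, LUM on the 3 untreated arrays and COL1A1 on 1 untreated array. The summed normalized signal of these 9 markers, on a linear scale, was 750.5 to 766 on the treated and 988 to 1088 on the untreated arrays. On the same scale the identity genes summed to 76734 to 80567 on the treated and 52062 to 58711 on the untreated arrays.

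Testosterone changed the expression of 4748 of the 10710 genes, which is 44.3%, at an adjusted p under 0.05 in limma. Expression was higher with testosterone for 2145 genes (20%) and lower for 2603 genes (24.3%). At least 2-fold changes were fewer, with 465 genes higher (4.34%) and 608 lower (5.68%). At 4-fold or more 90 genes were higher and 128 lower, and at 8-fold or more 25 and 32. These counts use normalized differences whether or not the dimmer group was detected, so where it was not they are not measured folds. With undetected signals raised to each array's lowest detected signal, 863 genes passed at 2-fold or more, against 1073. Many changes were small, with 2127 of them under 1.5-fold, and the median log2 difference over all genes was -0.02. The smallest log2 difference that passed was 0.22 in size and the largest that did not was 0.73. The 3 treated and 3 untreated arrays did not overlap for 6342 genes (59.2%). Expression detected on all 3 arrays of a group and on none of the other was found for 116 genes with testosterone only and for 327 genes without it only. A further 98 genes were detected on none of the 6 arrays and were kept through PIAS1 siRNA arrays. The 4748 include 37 of them, whose values here lie at background. The balance differed with the level of the gene. In the dimmest of 3 equal bins of genes by mean signal 18.5% were higher and 27.5% lower, and in the brightest 20.2% and 21.3%. With scaling to the 75th percentile in place of quantiles the split was 2383 genes higher and 2309 lower.

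**Figure D1:**
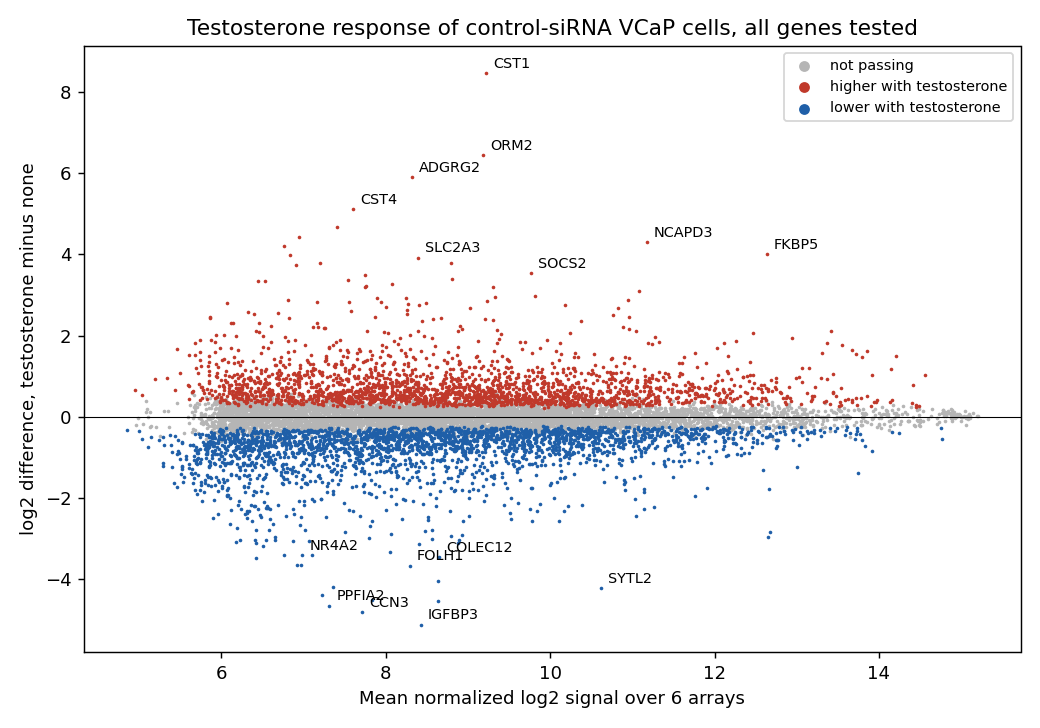
Mean normalized log2 signal over the 6 arrays (horizontal) against the log2 difference, testosterone minus none (vertical), for 10710 genes, 1 point a gene. Red points are the 2145 genes that were higher with testosterone, blue points the 2603 that were lower, and grey points those that did not pass, with named examples. Changes of both signs occur across the signal range, and the largest increase is that of CST1.

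Levels are normalized log2 signals, 1 value an array, and differences are log2 units, testosterone minus none, with the standard error after ±. Over all genes named here the standard error lay between 0.08 and 0.28. For a gene missed by detection on some array of the dimmer side, the lower level is only an upper limit and the fold is given as a minimum.

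The 20 genes with the largest increases include secreted proteins, transporters and signalling proteins, and 11 of them were undetected on every untreated array. CST1, CST4 and CST2 encode secreted cystatins, inhibitors of cysteine proteases, and lie near each other on chromosome 20. CST1 had log2 signals of 13.58, 13.40 and 13.36 in treated cells, against 4.95, 5.02 and 5.00 in untreated cells, at least 159-fold higher with testosterone. CST2 had 10.54, 10.70 and 10.82 in treated cells, against 7.20, 6.86 and 6.66 in untreated cells, a 13.8-fold difference (3.78 ± 0.17, limma adjusted p = 5.53e-10). All treated arrays lay above all untreated arrays for both, which the rule that named these 20 genes required. The 3 cystatins are close copies, as are ORM1 and ORM2, neighbours on chromosome 9 that encode acute-phase plasma proteins, so their probes may not tell them apart. PGC encodes a pepsinogen-type protease precursor also found in seminal fluid, and SERPINA3 a serine protease inhibitor. PGC was at least 6.21-fold higher and SERPINA3 at least 4.2-fold higher.

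Sugar transporters stood among the same 20 genes. SLC2A3, the glucose transporter GLUT3, had 10.53, 10.29 and 10.23 in treated cells, against 6.32, 6.37 and 6.61 in untreated cells, 15.1-fold higher (3.91 ± 0.14, adjusted p = 5.38e-11). SLC2A5, a fructose transporter, was at least 8.23-fold higher and was detected on 1 of the 3 untreated arrays. SOCS2, a suppressor of cytokine signalling, had 11.48, 11.58 and 11.52 in treated cells, against 8.04, 7.91 and 8.05 in untreated cells. It was 11.6-fold higher, and its other detected probe gave a log2 difference of 3.45. NDRG4 was 10.5-fold higher on its brightest probe (3.39 ± 0.14), and its other probe gave 1.99. EAF2, which binds the elongation factor ELL, was at least 10.0-fold higher, PWWP3B at least 7.79-fold and ADARB2, a relative of RNA-editing enzymes, at least 3.95-fold.

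Among the 20 genes with the largest decreases were receptors, adhesion and matrix proteins and 3 TRIM genes, and 13 of the 20 were undetected on every treated array. IGFBP3, which binds insulin-like growth factors, had 5.95, 5.98 and 5.66 in treated cells, against 10.94, 10.91 and 11.12 in untreated cells, at least 25.9-fold lower. COLEC12, a scavenger receptor of the collectin family, had 6.75, 7.0 and 7.01 in treated cells, against 10.32, 10.27 and 10.56 in untreated cells, 11-fold lower (-3.46 ± 0.12, adjusted p = 4.15e-11). The treated arrays lay below all untreated arrays for both genes, which the rule that named the 20 decreases required. NR4A2, an orphan nuclear receptor, was at least 5.28-fold lower, and ACKR3, a scavenging chemokine receptor, at least 4.49-fold. JAM3, a junctional adhesion molecule, was at least 9.95-fold lower and detected on 2 of 3 treated arrays. LUM, the matrix proteoglycan lumican, was at least 3.48-fold lower, SOBP at least 5.7-fold and OPRK1, the kappa opioid receptor, 8.85-fold. LUM is also among the fibroblast markers counted above, so the fall of that marker sum includes its own decrease. Its means were 4.91 in treated and 8.09 in untreated cells. ACTA2, the marker of that list detected on all 6 arrays, had means of 8.94 in treated and 9.05 in untreated cells. Whether the fall of the sum had a part in the other decreases was not tested.

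The 20 largest decreases included FOLH1, GRM5P1, TRIM48, TRIM51 and TRIM49C, all on chromosome 11. The share of that chromosome among the 20 was not computed. FOLH1, the pseudogene GRM5P1, TRIM48 and TRIM51 lie in that order on chromosome 11 in the RefSeq table, with other genes between them, at steps of 6, 38 and 38 listed genes, and TRIM49C lies farther along it. GRM5P1 had 5.04, 5.22 and 5.17 in treated cells, against 8.96, 8.57 and 8.87 in untreated cells, at least 5.69-fold lower. TRIM49C had 5.10, 4.97 and 5.19 in treated cells, against 8.95, 8.63 and 8.66 in untreated cells, at least 5.47-fold lower. Both were undetected on every treated array and detected on every untreated array. The TRIM genes of this group have near-identical copies, so which copies gave the signal is uncertain.

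**Figure D2:**
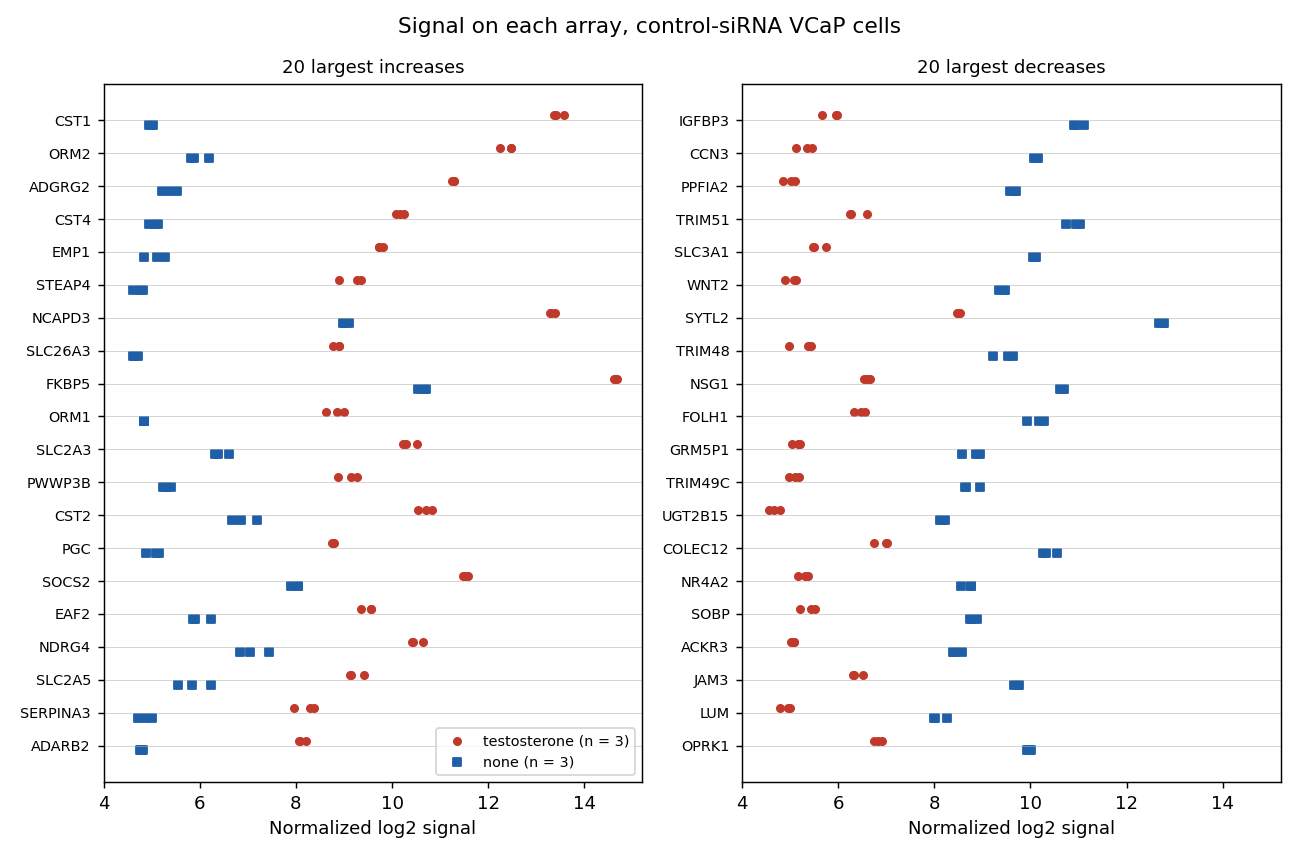
Normalized log2 signal (horizontal) on each array for the 20 genes with the largest increases (left) and the 20 with the largest decreases (right). Red circles are the 3 arrays with testosterone and blue squares the 3 without. For all 40 genes the groups do not overlap, a condition of the rule that named them.

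Most measured genes of the prostate's secretory programme were higher with testosterone. Of 20 measured genes for kallikreins and other secreted or prostate-typical proteins, 15 were higher, 3 lower and 2 did not pass, with a median log2 difference of 1.14 against -0.02 over all genes. Counts of this and the later lists stand against 20% higher and 24.3% lower over all genes tested. KLK3, which encodes prostate-specific antigen, had 7.08, 7.58 and 7.61 in treated cells, against 5.63, 5.74 and 5.81 in untreated cells. It was detected on all treated arrays and on no untreated array, at least 2.43-fold higher (1.69 ± 0.17, adjusted p = 1.93e-06). KLK2, its neighbour on chromosome 19, had 13.70, 13.96 and 13.84 in treated cells, against 12.74, 13.08 and 12.87 in untreated cells, a 1.91-fold difference. KLK4 was 1.73-fold higher (0.79 ± 0.08). KLK15 did not pass (0.19 ± 0.10, adjusted p = 0.136), and neither did ACP3, prostatic acid phosphatase (0.17 ± 0.10, adjusted p = 0.168).

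Other prostate genes of this list that rose were the serine protease TMPRSS2 (1.81), the disulfide isomerase AGR2 (1.77), the ubiquitous cystatin CST3 (1.61) and the transporter SLC45A3 (1.04). MSMB, a seminal plasma protein, gave 1.24 on its brightest probe, at least 1.18-fold, and 0.35 and 0.06 on its others. The trefoil peptide TFF3 (-1.13 ± 0.12) and the neuropeptide NPY (-0.56 ± 0.11) fell. The 3 lower calls also count the trypsin inhibitor SPINK1 (-0.47), which was detected on no treated array and on 2 untreated arrays, and whose call was lost in 11 of 17 alternative settings. TFF3 had 9.0, 8.72 and 9.06 in treated cells, against 10.10, 10.12 and 9.94 in untreated cells, so the arrays of the groups were apart.

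The KLK3 promoter is shown because, among the promoters of this list, it alone holds the 6 bases AGAACA. These are the core of an androgen response element, and the search used them on either strand. The stretch runs from 250 bases before to 50 bases after the start in RefSeq for GRCh38.p14, chr19:50854665-50854964 on the plus strand, with the match in capitals beginning at -170 from the start.
KLK3: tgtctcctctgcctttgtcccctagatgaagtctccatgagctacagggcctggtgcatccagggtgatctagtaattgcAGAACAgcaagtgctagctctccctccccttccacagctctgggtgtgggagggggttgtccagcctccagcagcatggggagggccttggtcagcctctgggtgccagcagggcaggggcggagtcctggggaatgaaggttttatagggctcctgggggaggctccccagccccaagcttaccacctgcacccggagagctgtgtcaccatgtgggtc
Over the 8653 genes tested that have such a promoter in the table, 8.69% hold AGAACA. The share was 7.14% of the genes that were higher with testosterone, 7.77% of those that were lower and 9.65% of those that did not pass. Of the 13 secretory genes with a promoter, 1 holds it.

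Genes that other steroid receptors also drive were mostly higher. Of 15 measured, 10 rose, 3 fell and 2 did not pass, with a median of 0.69. SGK1, a kinase that regulates ion transport, had 9.55, 9.80 and 9.76 in treated cells, against 6.48, 6.33 and 6.52 in untreated cells, 9.6-fold higher (3.26 ± 0.10, adjusted p = 9.04e-12), and its other probes gave 3.09 and 3.13. ERRFI1, a feedback inhibitor of the EGF receptor, was 5.09-fold higher and CEBPD, a transcription factor, 2.79-fold. BCL6 (-0.90 ± 0.15), TSC22D3 (-0.42 ± 0.12) and the metallothionein MT2A (-0.66 ± 0.14) fell. TSC22D3 is the glucocorticoid-induced leucine zipper, and its arrays read 8.2, 8.17 and 8.23 in treated cells, against 8.67, 8.50 and 8.70 in untreated cells.

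Cofactors and pioneer factors of the receptor changed little as a group. Of 28 measured, 4 were higher, 4 lower and 20 did not pass, with a median of 0.02 whose sign turned under other settings, and both shares lay under those over all genes. FOXA1, the pioneer factor that opens chromatin for the receptor, had 13.90, 13.80 and 13.73 in treated cells, against 13.88, 13.98 and 14.14 in untreated cells. HOXB13 had 10.90, 10.75 and 10.77 in treated cells, against 10.92, 10.91 and 10.81 in untreated cells. The arrays overlapped for both, and neither difference passed (-0.19 ± 0.12 and -0.07 ± 0.09). GATA2, a factor that acts upstream of the receptor, was 3.06-fold lower, with 9.96, 9.74 and 9.84 in treated cells, against 11.45, 11.52 and 11.42 in untreated cells. The coactivator NCOA2 was 1.78-fold lower, with arrays that did not overlap.

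PIAS1 was the member of that list with the largest increase. It had 11.32, 11.43 and 11.47 in treated cells, against 10.25, 10.37 and 10.33 in untreated cells, 2.13-fold higher (1.09 ± 0.11, adjusted p = 1.48e-06). The control pool does not target it. ERG, the fusion partner of TMPRSS2, had 8.61, 8.65 and 8.72 in treated cells, against 7.21, 7.17 and 7.23 in untreated cells, 2.75-fold higher (1.46 ± 0.09). Of 15 ETS family genes measured, 8 rose, 2 fell and 5 did not pass, among them SPDEF (1.94), a factor of luminal and goblet cells, and ELK4 (1.17), which rose, and ETS2 (-0.61), which fell.

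Several enzymes that make or clear androgens fell. Of 19 measured, 3 were higher, 9 lower and 7 did not pass, with a median of -0.27. AKR1C3, which reduces androstenedione to testosterone, had 7.45, 7.20 and 7.29 in treated cells, against 10.51, 10.38 and 10.43 in untreated cells, 8.69-fold lower (-3.12 ± 0.12, adjusted p = 1.29e-10). HSD17B6, which oxidises androstanediol, was 4.13-fold lower. The UDP-glucuronosyltransferases UGT2B15 and UGT2B17, which inactivate androgens by adding glucuronic acid, were at least 3.66-fold and at least 6.21-fold lower. UGT2B17 had 5.88, 6.09 and 6.27 in treated cells, against 8.95, 8.93 and 8.90 in untreated cells, and was detected on untreated arrays only. These enzymes are close copies in a cluster on chromosome 4, so their probes may not tell them apart. SRD5A1, a reductase that makes dihydrotestosterone, was higher by a small margin (0.46 ± 0.12), as was the electron donor CYB5A (0.55).

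The protein export route from the endoplasmic reticulum to the Golgi rose along most of its length. Of 24 genes for translocation into the endoplasmic reticulum and signal peptide removal, 16 were higher, 1 lower and 7 did not pass, with a median of 0.56. SSR3, a subunit of the translocon-associated complex, had 8.44, 8.56 and 8.16 in treated cells, against 6.53, 6.26 and 6.71 in untreated cells, 3.7-fold higher. The signal peptidase subunit SEC11C was 2.95-fold higher, with 14.11, 14.01 and 14.15 in treated cells, against 12.58, 12.48 and 12.54 in untreated cells. The 1 lower call was SEC11A, the other catalytic subunit (-0.26), and it was lost in 7 of 18 alternative settings, 75th percentile scaling and the replicate block among them.

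Of 33 genes for folding in the endoplasmic reticulum and the unfolded protein response, 27 were higher, none was lower and 6 did not pass, with a median of 0.58. DNAJB9, a chaperone cofactor, had 9.08, 9.24 and 9.39 in treated cells, against 7.53, 7.80 and 7.52 in untreated cells, and its groups were well apart (1.62 ± 0.12). DNAJC10, a disulfide reductase, gave 1.55, CREB3L4, a membrane-bound transcription factor of the prostate, 1.62, and the stress-sensing kinase EIF2AK3 0.79. Coat proteins and cargo factors of the COPII and COPI vesicles, which carry proteins forward to the Golgi and back, followed the same pattern, with 33 of 43 higher, none lower and 10 not passing. Examples were the Golgi membrane protein YIPF1 (1.83), the COPII cargo adaptor SEC24D (1.47) and the retrieval receptor KDELR3 (1.18). Among 47 genes for N-glycan assembly and sugar nucleotides 22 rose, 1 fell and 24 did not pass. GNE and CMAS, which make and activate sialic acid, gave 1.70 and 1.16, and UGDH, which makes the glucuronic acid donor, was the member that fell (-0.50).

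Golgi glycosyltransferases did not share one direction, with 15 of 45 higher, 14 lower and 16 not passing. ST6GALNAC1, a sialyltransferase of mucin-type glycans, had 9.17, 9.05 and 8.97 in treated cells, against 6.76, 7.22 and 7.01 in untreated cells, 4.18-fold higher. ST3GAL1, another sialyltransferase, fell by 0.96, and EXT1, which extends heparan sulfate, by 1.03.

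ERO1B, an oxidase of the endoplasmic reticulum, is shown for its promoter, which holds the ER stress element. The search pattern was CCAAT, 9 bases of any kind and CCACG, on either strand, and it contains a CCAAT box. ERO1B had 6.53, 6.93 and 6.96 in treated cells, against 5.87, 5.90 and 5.89 in untreated cells, and was detected on treated arrays only (0.92 ± 0.12, at least 1.59-fold). The promoter lies at chr1:236281909-236282208 in GRCh38.p14, minus strand, and the capitals mark the element in reverse orientation from -243.
ERO1B: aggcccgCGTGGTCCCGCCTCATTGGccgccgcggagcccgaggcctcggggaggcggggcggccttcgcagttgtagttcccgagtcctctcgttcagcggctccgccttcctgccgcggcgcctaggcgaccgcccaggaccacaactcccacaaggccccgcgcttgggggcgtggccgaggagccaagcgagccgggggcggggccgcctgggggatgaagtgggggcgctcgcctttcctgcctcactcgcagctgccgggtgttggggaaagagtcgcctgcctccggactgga
The element was found in 7 of 32 promoters of the folding list (21.9%) and in 14 of the 8653 of all genes tested. None of the 40 promoters of the vesicle coat list and none of the 21 of the translocation list held it.

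Cell cycle genes fell together. In whole-culture RNA, fewer cells in a phase of the cycle and less RNA per cell cannot be told apart. Of 47 DNA replication genes measured, 41 were lower, 1 higher and 5 did not pass, with a median of -1.27. CDC45, which activates the replicative helicase, had 8.73, 8.63 and 8.68 in treated cells, against 11, 11.05 and 10.98 in untreated cells, 5.04-fold lower (-2.33 ± 0.10, adjusted p = 2.42e-10). MCM4, a helicase subunit, had 9.94, 10.13 and 9.97 in treated cells, against 11.98, 12.04 and 12.12 in untreated cells, 4.09-fold lower. The primase subunit PRIM1 was 4.24-fold lower. The arrays were apart for these genes. ORC5, an origin recognition subunit, was the member that rose (0.33).

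DNA repair genes moved the same way, with 24 of 30 lower, none higher and 6 not passing, and a median of -0.81. BARD1, the partner of BRCA1, had 7.76, 7.83 and 7.78 in treated cells, against 10.23, 10.25 and 10.22 in untreated cells, 5.43-fold lower. The exonuclease EXO1 was at least 4.01-fold lower and was detected on untreated arrays only, and the glycosylase UNG (-1.82) and the checkpoint kinase CHEK1 (-1.26) also fell. Mitosis genes were lower for 47 of 58, higher for 1 and not passing for 10, with a smaller median of -0.55. CENPM (-1.49) and CENPU (-1.39), proteins of the centromere, fell most among those named. The mitosis gene that rose was CENPN, another centromere protein, with 10.32, 10.45 and 10.46 in treated cells, against 9.56, 9.44 and 9.33 in untreated cells (0.97 ± 0.10).

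The condensins split. NCAPD3, a condensin II subunit, had 13.40, 13.28 and 13.30 in treated cells, against 8.97, 9.02 and 9.09 in untreated cells, 19.6-fold higher. SMC2 and SMC4, which both condensins share, fell by 0.87 and 0.60, and the condensin I subunits NCAPD2 and NCAPG by 0.86 and 0.85. NCAPG2, another condensin II subunit, also fell (-0.79). Of 15 condensin and cohesin genes measured, NCAPD3 was the only member to rise, 6 fell and 8 did not pass. Regulators of entry into S phase were mixed, with 5 of 27 higher, 11 lower and 11 not passing. E2F2, an activating E2F factor, was 5.55-fold lower and SKP2, which targets the inhibitor p27 for degradation, 2.78-fold lower. CDKN1A, the kinase inhibitor p21, had 11.75, 11.59 and 11.71 in treated cells, against 10.20, 10.25 and 10.26 in untreated cells, 2.72-fold higher. MYC, a driver of growth and cycle genes, was 2.49-fold lower (-1.32 ± 0.12), and its other probe gave -1.40.

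A pair of promoters shows the elements that recur in these lists. GINS2, a subunit of the GINS complex of the helicase, had 6.92, 7.05 and 7.15 in treated cells, against 8.89, 8.96 and 8.87 in untreated cells (-1.86 ± 0.10), and stands for the replication genes. Its promoter is at chr16:85688905-85689204, minus strand, with the E2F site searched as TTTNNCGC on either strand, in capitals in reverse orientation from -31. KIF15, a mitotic kinesin, had 7.62, 7.66 and 7.81 in treated cells, against 8.85, 8.93 and 8.94 in untreated cells (-1.21 ± 0.10). It was added for the mitosis genes after their values were seen. Its promoter is at chr3:44761544-44761843, plus strand, and the capitals mark the cell cycle homology element (CHR), searched as TTTGAA on either strand, from -35. Both windows are from RefSeq for GRCh38.p14. The KIF15 window also holds an E2F site and a cAMP response element, searched as TGACGTCA, and the GINS2 window a CCAAT box. These are not marked.
GINS2: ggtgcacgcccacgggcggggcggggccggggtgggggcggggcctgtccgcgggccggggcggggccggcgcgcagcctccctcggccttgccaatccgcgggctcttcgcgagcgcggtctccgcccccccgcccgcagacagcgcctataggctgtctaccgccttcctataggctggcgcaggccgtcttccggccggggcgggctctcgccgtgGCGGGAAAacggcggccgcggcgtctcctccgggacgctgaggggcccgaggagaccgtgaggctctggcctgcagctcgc
KIF15: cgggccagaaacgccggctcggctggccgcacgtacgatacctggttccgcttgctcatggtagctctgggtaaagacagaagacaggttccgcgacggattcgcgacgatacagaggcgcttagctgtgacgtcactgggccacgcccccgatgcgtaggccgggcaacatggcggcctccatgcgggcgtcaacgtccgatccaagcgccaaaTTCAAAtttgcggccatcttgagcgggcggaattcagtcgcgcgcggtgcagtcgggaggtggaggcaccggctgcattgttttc
The E2F site was in 22 of 42 promoters of the replication list (52.4%), in 9 of 49 of the mitosis list (18.4%) and in 10.7% of those of all genes tested. The CHR element was in 34 of 49 promoters of the mitosis list (69.4%), in 2 of 42 of the replication list (4.76%) and in 9.65% of all. Among all genes tested that were lower with testosterone, 11.9% held the E2F site and 11.3% the CHR element. A CCAAT box was in 77.6% of the mitosis promoters and 75% of the folding promoters, against 37.5% of all.

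**Figure D3:**
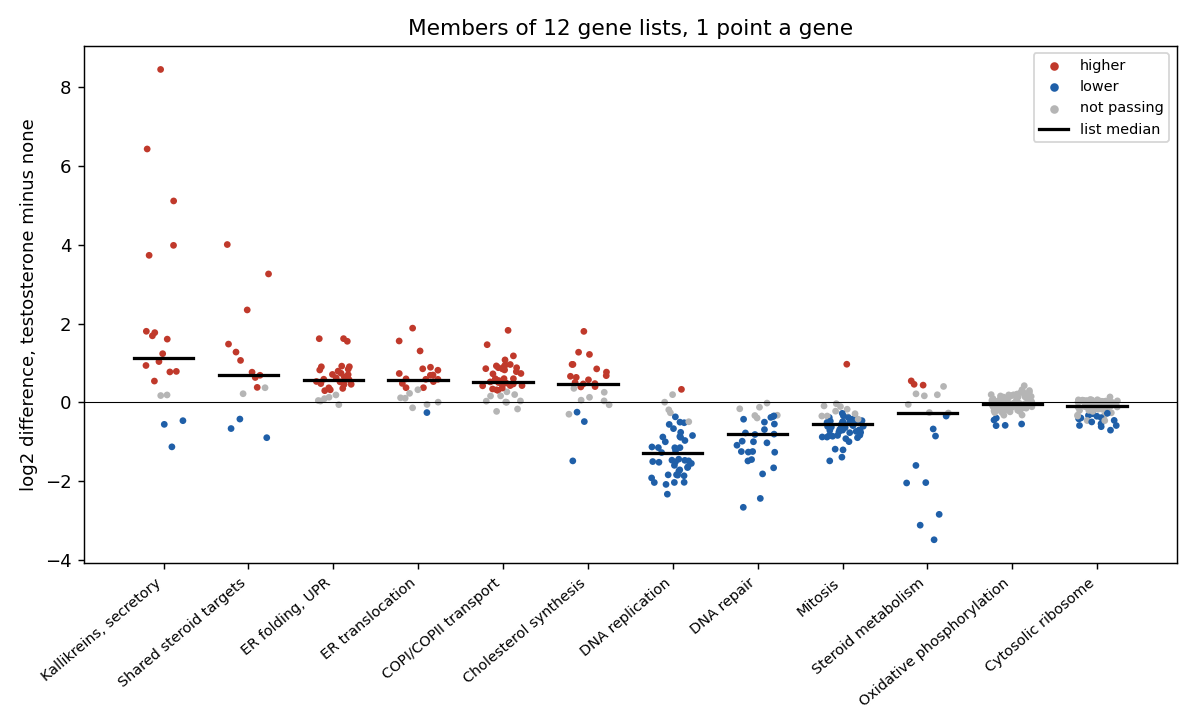
The log2 difference, testosterone minus none (vertical), for every measured member of 12 gene lists, 1 point a gene, with a black bar at the list median. Red points were higher, blue points lower and grey points did not pass. The replication, repair and mitosis lists lie mostly below 0, the secretory, folding and transport lists mostly above it, and oxidative phosphorylation and the ribosome close to it.

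Metabolic genes changed in part, in counts that stand against 20% higher and 24.3% lower over all genes tested. Of 26 genes of cholesterol synthesis and handling, 16 were higher, 3 lower and 7 did not pass, with a median of 0.47. IDI1, an isoprenoid isomerase, had 11.98, 12.20 and 12.11 in treated cells, against 10.44, 10.23 and 10.21 in untreated cells, 3.49-fold higher. The efflux pump ABCA1 was at least 1.98-fold lower (-1.49 ± 0.14) and detected on untreated arrays only. Among 31 genes of fatty acid synthesis 13 rose and 7 fell, and among 26 of fatty acid oxidation 9 rose and 7 fell. AMACR, a racemase for branched fatty acids that is used as a marker of prostate cancer, had 13.20, 13.25 and 13.15 in treated cells, against 11.21, 11.35 and 11.41 in untreated cells, 3.67-fold higher. The acylglycerol enzyme GPAT3 was at least 2.87-fold lower.

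In glycolysis 11 of 29 genes were higher, 6 lower and 12 did not pass. Hexokinase HK2 had 9.95, 10.12 and 10.11 in treated cells, against 8.17, 8.2 and 8.18 in untreated cells, 3.66-fold higher. PFKFB2, which makes the activator of phosphofructokinase, was 3.09-fold higher, and the neuronal enolase ENO2 at least 3.27-fold lower. GNMT, which consumes S-adenosylmethionine, had 9.40, 9.22 and 9.43 in treated cells, against 6.39, 6.57 and 6.65 in untreated cells, 7.04-fold higher, in a list of one-carbon and pentose genes where 4 of 24 rose and 9 fell. IDH1, the cytosolic isocitrate dehydrogenase, was 2.75-fold higher. Of the citrate cycle genes 8 of 27 rose (29.6%) and 7 fell (25.9%). These shares are near enough to those over all genes to be no result about the list.

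Counts for the basic machinery moved with the scaling of the arrays. The lower shares of the cytosolic ribosome (22.9%) and splicing factors (23%) lay near the 24.3% over all genes tested. Of 75 oxidative phosphorylation genes none was higher, 5 were lower and 70 did not pass, while scaling to the 75th percentile gave 4 higher and 4 lower, and the alternatives ran up to 12 higher. For the cytosolic ribosome none of 70 was higher and 16 were lower (9 under that scaling), with a median of -0.10, and RPL37 (-0.71) had the largest decrease of those named. Of 41 proteasome genes 7 rose and 4 fell, against 13 and 3 under that scaling. Among those that fell were the immunoproteasome subunits PSMB8 (-0.94) and PSMB10 (-0.57). Splicing factors were lower for 20 of 87 and higher for 5, or 13 and 7 under that scaling. KHDRBS3, an RNA-binding splicing regulator, was 5.94-fold lower, with 8.87, 8.75 and 8.83 in treated cells, against 11.30, 11.42 and 11.44 in untreated cells.

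**Figure D4:**
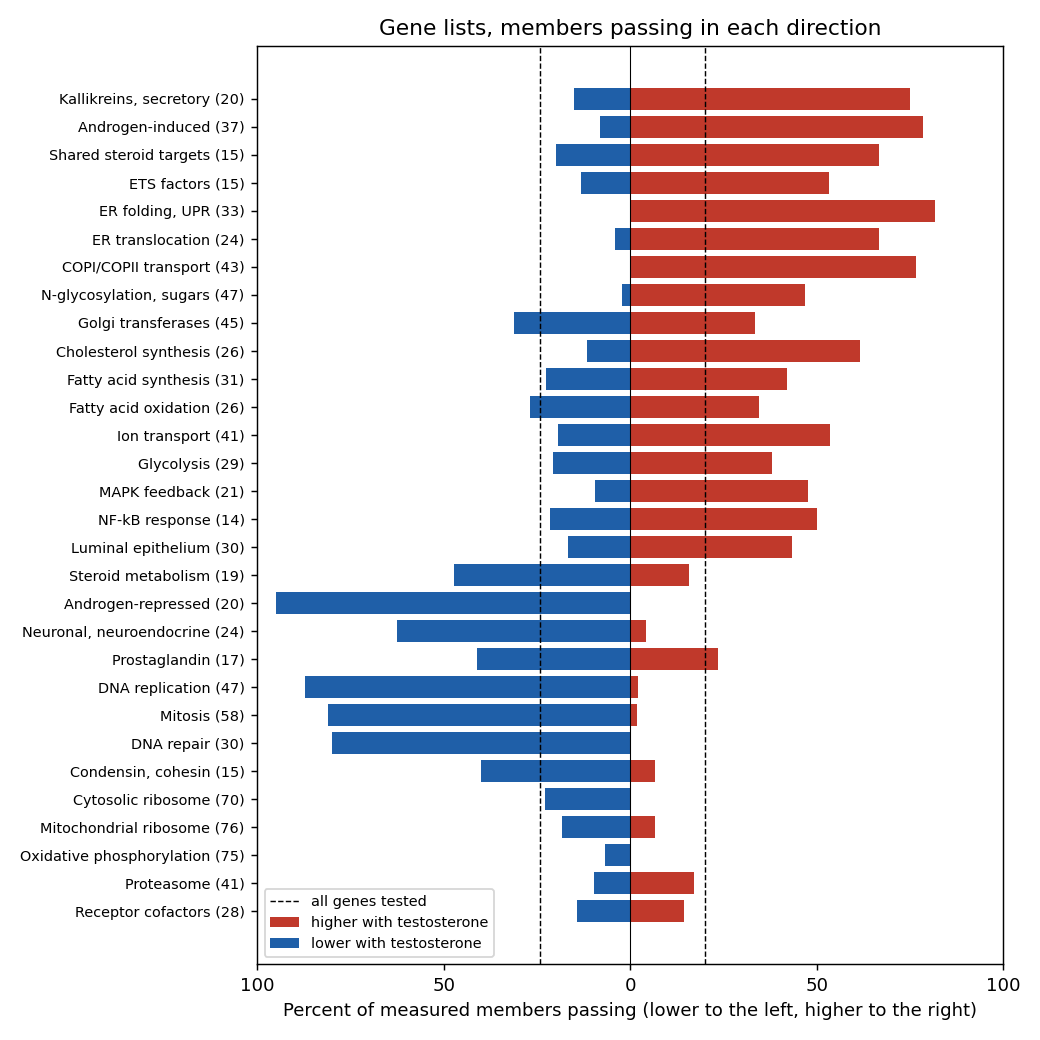
Percent of the measured members of 30 gene lists that were higher (red, to the right) or lower (blue, to the left) with testosterone, with the number measured in parentheses. Dashed lines mark the shares over all genes tested, 20% higher and 24.3% lower. The replication, mitosis and repair bars extend to the left and the folding, transport and secretory bars to the right.

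The counts of the signalling lists stand against 20% higher and 24.3% lower over all genes tested. Shares near these, as for the growth factor, TGF-beta and WNT lists, are no result about the list, and the single genes are given for their own values. In the insulin-like growth factor pathway 5 of 18 genes rose and 9 fell. The receptor IGF1R had 9.83, 9.31 and 9.47 in treated cells, against 8.09, 8.42 and 8.21 in untreated cells, 2.46-fold higher. The binding proteins IGFBP2 and IGFBP5 were 3.44-fold and at least 3.31-fold lower, alongside IGFBP3. Of 25 growth factors and receptors 5 rose, 5 fell and 15 did not pass. NRP1, a co-receptor for semaphorins and VEGF, was 6.87-fold lower, and EFNB2, an ephrin ligand, 5.71-fold lower. The receptor tyrosine kinase ERBB2 was 2.24-fold lower. FGFR3 was 2.64-fold higher on its brightest probe, and its other probe gave -0.23.

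The WNT list had 8 of 31 genes higher and 11 lower. The ligands WNT2 and WNT5A were at least 8.75-fold and at least 1.34-fold lower, and the receptor FZD5 was 4.33-fold higher, with 9.81, 9.25 and 9.29 in treated cells, against 7.26, 7.31 and 7.43 in untreated cells. Of 31 genes of TGF-beta and BMP signalling 7 rose and 9 fell. The receptor BMPR1B was 4.15-fold higher and the transducer SMAD3 3.11-fold lower. In the Notch list 5 of 20 rose and 8 fell, with the ligand JAG1 3.05-fold lower and the target HES1 2.78-fold higher. Feedback genes of MAP kinase signalling were higher for 10 of 21 and lower for 2, among them EGR1 (1.74), an early response factor.

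In the list of NF-kB response genes 7 of 14 rose and 3 fell. CCL2, a monocyte chemokine, had 8.66, 9.47 and 9.93 in treated cells, against 6.29, 6.16 and 5.99 in untreated cells, at least 9.04-fold higher, with the widest spread between treated arrays of the genes described here by array. Interferon and antigen presentation genes were higher for 10 of 30 and lower for 9. HLA-B and B2M, parts of the class I complex, were 2.48-fold and 2.29-fold higher. The interferon-induced antiviral genes OAS3 and MX1 were 2.39-fold and at least 1.36-fold lower.

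The prostaglandin list had 4 of 17 genes higher and 7 lower. HPGD, which inactivates prostaglandins, had 12.03, 12.23 and 12.02 in treated cells, against 10.06, 9.92 and 9.98 in untreated cells, 4.31-fold higher. The exporter ABCC4 was 2.78-fold higher and the synthase PTGES 2.35-fold. The receptors PTGER2 and PTGFR were 6.43-fold and at least 2.31-fold lower, and PTGER4 was 1.48-fold lower. The largest decrease on the list was that of AKR1C3 (-3.12), which also makes prostaglandin F, and the synthase PTGES3 (-0.06) did not pass.

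Transport, adhesion and cell surface genes included further large changes. Of 41 ion transport genes 22 were higher, 8 lower and 11 did not pass, with a median of 0.40. KCNMA1, the large-conductance potassium channel, had 9.90, 10.00 and 10.11 in treated cells, against 7.94, 7.77 and 7.84 in untreated cells, 4.45-fold higher. The calcium pump ATP2B4 was 3.67-fold higher, and the bicarbonate cotransporter SLC4A4 at least 2.65-fold lower. Among annexins, S100 proteins and their partners 7 of 17 rose and 3 fell. ANXA2, a membrane-binding annexin, had 12.11, 12.15 and 12.23 in treated cells, against 9.5, 9.42 and 9.54 in untreated cells, 6.4-fold higher. MYOF, a ferlin of membrane repair, was 7.66-fold higher, and ANXA3 2.27-fold lower.

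Genes of neurons and neuroendocrine cells were lower for 15 of 24 and higher for 1, with a median of -0.38. SYTL2, a synaptotagmin-like vesicle protein, and NSG1, a neuronal endosome protein, were 18.8-fold and 16.6-fold lower, though a further SYTL2 probe gave -0.76. The list's single increase was synaptophysin, SYP, with 7.05, 6.57 and 7.12 in treated cells, against 5.96, 6.14 and 5.97 in untreated cells, at least 1.71-fold. Luminal epithelial genes were higher for 13 of 30 and lower for 5. The keratin KRT8 was 2.16-fold higher, while KRT18 (0.28), EPCAM (0.15) and CDH1 (-0.04) did not pass. The mesenchymal list had 10 of 31 higher and 9 lower, with SNAI2, a transcription factor of epithelial plasticity, at least 1.94-fold higher and the collagen COL5A2 at least 1.13-fold lower.

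The response was set against that of cells with PIAS1 siRNA, from separate arrays, to see where it differed. The test of the difference passed for 1065 of 10710 genes (9.94%), with 523 more positive and 542 more negative after PIAS1 siRNA. Of those, 708 were among the 4748 genes that changed here, which are 44.3% of all genes tested. For 270 the response after PIAS1 siRNA lay further in the direction seen with control siRNA. For 438 it was shifted the other way, which counts both weaker and reversed responses. The 708 were chosen by the control siRNA response, and the difference subtracts that response from the same arrays. Such a choice by itself favours shifts the other way, so the split of 270 and 438 carries no direction. Among the 708 were the TRIM and GRM5P1 decreases. These genes were detected on all 6 PIAS1 siRNA arrays and all 3 untreated control siRNA arrays, while on treated control siRNA arrays TRIM51 was detected on 1 of 3 and GRM5P1, TRIM48 and TRIM49C on none. Their responses with control siRNA are therefore given with undetected signals raised to each array's lowest detected signal, which makes them bounds. TRIM51 changed by -0.20 after PIAS1 siRNA and by -4.48 after control siRNA on that scale, and GRM5P1 by -0.32 and -2.51. TRIM48 changed by -0.15 and -3.17, and TRIM49C by -0.75 and -2.45 (adjusted p of the difference 6.87e-06 and 2.41e-05). FKBP5 (3.98 after PIAS1 siRNA and 4.01 after control siRNA), SGK1 (3.20 and 3.26) and SOCS2 (3.56 and 3.53), all detected on every array, did not pass the test of the difference, which does not show that the responses were equal. Replicate 3 of the treated PIAS1 siRNA group stood apart from its group, and without it the count was 1435.

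**Figure D5:**
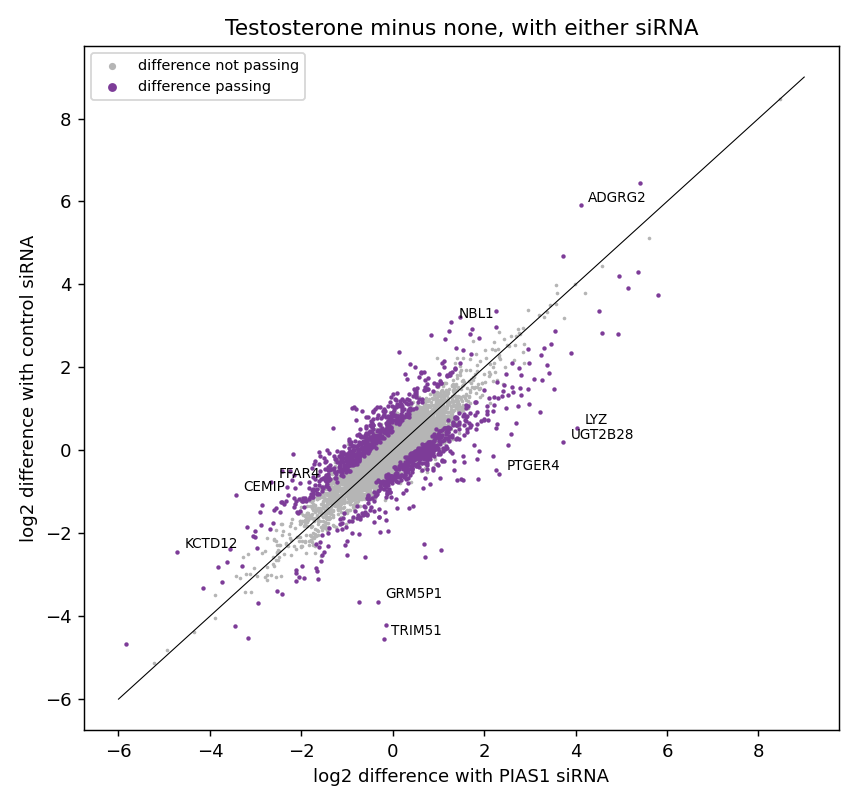
The log2 difference, testosterone minus none, in cells with PIAS1 siRNA (horizontal) and with control siRNA (vertical), 1 point a gene, with the line of equal response. Purple points are the 1065 genes whose difference between the responses passed. TRIM51 and GRM5P1 lie far below the line with control-siRNA values of -4.54 and -3.66, which are set by treated arrays at or near background.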

How the data were processed

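The authors deposited scanner intensity without normalization for each probe and array, per the file headers, with a detection p-value beside it. They also deposited a log2 table, used only as an alternative. Per the submitters' processing notes, lumi was used, with settings not given in these sources.

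Background correction and quantile normalization used the neqc function of limma 3.58.1 (R 4.3.3), with the background inferred from detection p-values and an offset of 16. Probes with detection p under 0.01 on at least 3 of 12 arrays were kept, 17835 of 47323, and each gene took its kept probe with the highest mean. Of all probes, 30113 had 1 gene, 8 had several and 17202 had none listed. Symbols were updated through the gene identifier in RefSeq for GRCh38.p14, which also gave the promoters.

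A limma model of 4 group means over 12 arrays gave two-sided p-values, adjusted by the Benjamini-Hochberg method over 10710 genes, with a threshold of 0.05. Exact permutation of 3 against 3 arrays was left out, since its smallest p is 0.1. On simulated data of 10658 genes this comparison called 90% of 2-fold increases and 92% of 2-fold decreases, 56% and 52% at 1.5-fold, and 0.0574% of unchanged genes. Only 50 genes were changed at each fold and direction, all drawn from genes with signal well above background. The adjusted threshold depends on the share of changed genes, so these rates do not give the error rate of the 4748 calls. The number of arrays limits the precision, and the median standard error was 0.126.

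A fold given as "at least" sets the brighter group against, per array, the higher of the lowest detected signal and the probe's own value, and folds at low signal are compressed by the offset. Genes were named by a rule: the 20 largest differences in each direction among genes that passed, did not overlap and were detected throughout the brighter group, up to 6 members per list by smallest p, up to 4 members against a list's direction, all members of 5 short lists, PIAS1, and the 10 strongest differences between siRNAs, 5 in each direction. The members and the gene lists were chosen with earlier results of these data known, and no list was tested as a set. Alternatives covered normalization, background, filters, probe summary, array weights, a replicate block and leaving out each array. Same-numbered arrays deviated with correlations of -0.26, 0.07 and -0.26, so the numbers were not used as pairs.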

Additional observations from a re-analysis of the deposited data

Results flagged for a closer look

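The response to testosterone differed between PIAS1 siRNA and control siRNA for 1065 genes, by the difference of both responses in the limma model. The values that follow are the response after PIAS1 siRNA minus that after control siRNA, in log2 units, for the 5 positive and 5 negative differences with the smallest p. Positive differences were 4.34 ± 0.23 for TRIM51 (adjusted p = 7.75e-08), 3.54 ± 0.17 for UGT2B28 (6.45e-08) and 3.50 ± 0.13 for LYZ (2.85e-09). GRM5P1 gave 3.34 ± 0.17 (adjusted p = 6.45e-08) and PTGER4 2.89 ± 0.16 (7.75e-08). Negative differences were -2.34 ± 0.18 for CEMIP (adjusted p = 3.18e-06), -2.27 ± 0.16 for KCTD12 (8.79e-07) and -1.91 ± 0.15 for FFAR4 (3.93e-06). NBL1 gave -1.82 ± 0.18 (adjusted p = 2.71e-05) and ADGRG2 -1.79 ± 0.15 (7.14e-06). Of these 10, only CEMIP, NBL1 and PTGER4 were detected on all 12 arrays of both siRNAs, so for the other 7 the printed size depends on signals at background. With undetected signals raised to each array's lowest detected signal the differences were 4.29 for TRIM51, 2.73 for UGT2B28, 2.67 for LYZ, 2.18 for GRM5P1, -1.93 for KCTD12, -1.49 for FFAR4 and -1.02 for ADGRG2.

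These genes behaved in several ways with control siRNA. NBL1, a secreted BMP antagonist, was 8.56-fold higher with testosterone there, with 12.79, 12.39 and 12.69 in treated cells, against 9.66, 9.36 and 9.57 in untreated cells. CEMIP, a hyaluronan-degrading protein, was 2.11-fold lower and KCTD12, a subunit that modulates GABA-B receptors, at least 5.36-fold lower. PTGER4 had 7.70, 8.0 and 7.75 in treated cells, against 8.43, 8.31 and 8.39 in untreated cells, a decrease of 1.48-fold, and its response after PIAS1 siRNA was 2.33. LYZ, UGT2B28 and FFAR4 were detected on none of the 6 control siRNA arrays, so their values with control siRNA have no order. They passed the filter on dim probes only through 3 arrays with PIAS1 siRNA each, treated ones for LYZ and UGT2B28 and untreated ones for FFAR4, so a difference was built into their selection. Without replicate 2 or 3 of the treated control siRNA group the count was 674 or 657, without untreated replicate 3 it was 667, and with array weights 2612.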

How the results depend on the processing

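The count of genes passing kept within 1.5 times of 4748 under all settings run, from 4038 without treated replicate 3 to 6451 with array weights, and no gene passed in opposite directions in any of them. The count was 5772 without replicate 3 of the treated PIAS1 siRNA group, which stood apart, and 4453 without treated replicate 1. Leaving out each of the 6 arrays gave 4038 to 4453 genes passing, 1803 to 1966 higher, 2217 to 2487 lower and 1065 to 1095 passing at 2-fold. With a replicate block 4664 passed, 2112 higher and 2552 lower, and 942 differed between siRNAs. The block moved no count by over 1.5 times, and the numbers were not shown to pair the samples. Genes passing at 2-fold numbered 385 in the authors' values and 584 with no background correction, against 1073, and the cause was not tested. Genes differing between siRNAs numbered 2612 with array weights, 1435 without that PIAS1 siRNA array and 657 to 1386 with each array left out, and the cause was not tested. Of 508 named genes, 469 passed, 415 of them in every alternative with the same sign, and 50 were lost at least once. Of the genes that did not pass, 19 passed in some alternative. When undetected values were set to an array's lowest detected signal, 6 turned sign: BMP6 (0.079), CDH26 (0.033), ELF4 (0.12), FFAR4 (0.16), H2AC11 (0.057) and H3C13 (0.052). These were not detected on any treated array.

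Signal over background limits dim genes, since 116 genes were detected on treated arrays only and 327 on untreated arrays only, and their folds are bounds. Medians whose sign turned under some setting, such as those of the receptor cofactors, oxidative phosphorylation and prostaglandin lists, carry no direction. The plain count of replicates does not show whether they were separate cultures. Testosterone was given at 1 dose and 1 time to 1 cell line.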

Other observations

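Genes of further groups are given here as values. Their counts stand against 20% higher and 24.3% lower over all genes tested, and those near these shares, as for the lysosome, clock and histone modifier lists, are no result about the group. In the zinc list 10 of 23 genes were higher and 5 lower. SLC30A2, a zinc exporter, was at least 3.12-fold higher on its brightest probe, with 7.93, 7.94 and 7.83 in treated cells, against 6.04, 5.94 and 6.43 in untreated cells, and its other probe gave 0.33. Among metallothioneins, which bind zinc, MT2A (-0.66) and MT1E (-0.49) fell, and MT1X (0.22) did not pass. The call for MT1E was lost with 75th percentile scaling (-0.36). Of 61 lysosome and autophagy genes 14 rose and 10 fell, against 20 and 8 with 75th percentile scaling. WIPI1, a phosphoinositide-binding autophagy protein, had 9.87, 9.73 and 9.76 in treated cells, against 6.88, 7.07 and 7.13 in untreated cells, 6.79-fold higher, while ATG7, an activating enzyme of the same process, was 2.34-fold lower. Of 45 Rab GTPases 15 rose and 9 fell, and the relatives RAB27A and RAB27B went opposite ways (1.27 and -0.67).

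Among 32 clustered histone genes 8 rose, 3 fell and 21 did not pass. H2BC21 had 10.63, 10.53 and 10.51 in treated cells, against 8.69, 8.73 and 8.70 in untreated cells, 3.6-fold higher, and these genes have near-identical copies. Histone and DNA modifiers were lower for 16 of 58 and higher for 8, with the methyltransferases DNMT1 (-0.92) and EZH2 (-0.83) lower and the demethylase KDM7A (1.38) higher. In the clock list 4 of 13 rose and 4 fell. The repressors CRY1 (0.76) and CRY2 (0.79) were higher, and DBP (-0.79), PER3 (-0.46) and NR1D2 (-0.67) were lower, though the call for PER3 was lost without treated replicate 2 and without untreated replicate 3. Of 3765 kept probes with no gene listed, 553 were higher and 605 lower in a fit of every kept probe. In that fit 30.8% of them passed, against 42.4% of the kept probes with a gene listed.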
